A study of Carassius auratus with 5 samples.

Results

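Translation factors are the proteins that start and lengthen a protein chain on the ribosome, and the 38 clones described here carry their names among the 8099 clones of a goldfish cDNA array. A clone was taken when the name the files pair with it contained, in any case, "translation initiation factor", "elongation factor", a word starting with eIF or eEF, or "tRNA synthetase", and not "negative elongation" or "transcription elongation". The names stand for 25 genes: 19 clones name initiation factors, 4 name proteins that bind and inhibit the cap-binding factor eIF4E, 8 name elongation factors and 6 name aminoacyl-tRNA synthetases. The last match, eIF2C 3, is an older name for a member of the Argonaute family, which acts in small-RNA silencing and is not an initiation factor.

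RNA came from the telencephalon, the front part of the forebrain, of sexually mature female goldfish (Carassius auratus). Each of 5 arrays compared 1 independent group of fish, kept in water with 50 µg/L fadrozole and labeled with Cy3, against the same Cy5-labeled pool from fish that were not exposed. Fadrozole blocks aromatase, which turns androgens into estrogens and which radial glia of the fish forebrain hold in quantity. The pool counts as 1 control sample, so that the spread between unexposed fish is left out of every test, and since the dyes were never swapped, a dye effect and an effect of fadrozole cannot be told apart. The number of fish in a group and the length of exposure are not given in the sources used here. The arrays are called replicates 1 to 5, and p-values measure only the spread between these 5 arrays. Each group of fish had its own slide, so that spread between groups and spread between slides cannot be told apart.

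In textbook terms, initiation begins when eIF2, carrying GTP and the initiator tRNA, joins the small ribosomal subunit with eIF1A, eIF3 and eIF5, and when the eIF4 factors bring this complex to the cap of the mRNA. Elongation then repeats a cycle in which EF-1 alpha delivers charged tRNAs, EF-1 beta and gamma help to reload EF-1 alpha with GTP, and EF-2 moves the ribosome along by a codon. The aminoacyl-tRNA synthetases supply this cycle by joining each amino acid to its tRNA. In brain, control of these steps, mainly through phosphorylation of eIF2 and of the eIF4E-binding proteins, is known for its part in synaptic plasticity and in stress responses.

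No translation factor clone differed between fadrozole and control past the threshold. At a Benjamini-Hochberg adjusted p of 0.05 over the 8078 clones tested, limma's moderated test called 0 of the 38 members higher, where 0.421% of all clones were called, and 0 lower, where 1.61% were. In either direction that was 164 clones, or 2.03% of those tested. The number of these calls over the whole array changed with 1 array left out. Such a fit also has fewer arrays, and the part of that in the change was not tested. With all 5 arrays, 1159 clones had an unadjusted p under 0.05. Limma called 0 clones higher and 1 lower without replicate 1, and 0 in either direction without replicate 2 or 3, where 1014 and 1002 clones had an unadjusted p under 0.05. It called 21 higher and 153 lower without replicate 4, and 9 higher and 90 lower without replicate 5. At an unadjusted p of 0.05, 7 of the 38 members passed, or 4 higher and 3 lower, against 14.3% of all clones in either direction, 6.29% higher and 8.06% lower. Values below are log2 ratios of fadrozole over control after background correction and loess, averaged over the 2 spots of a clone on each array. The offset of 50 added in the background correction draws the ratios of dim clones toward 0.

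The mean log2 ratios of the members lay between -0.33 and 0.33, the outer ends amounting to 1.25-fold. Their median was 0.03 ± 0.06 (SD of the 5 array medians), beside a median of -0.003 over all tested clones and 0.005 over the 3474 tested clones with a description. A mean above 0 was found for 21 of the 38, where 49% of all clones had one. The 95% interval of the mean included 0 for 31 members, and for 37 it lay wholly within a 1.5-fold change either way, on this compressed scale. The exception was 52i24, an eIF4E-binding clone, whose interval reached 0.72. Between arrays, the SD of a member ran from 0.05 to 0.63 with a median of 0.20.

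**Figure D1:**
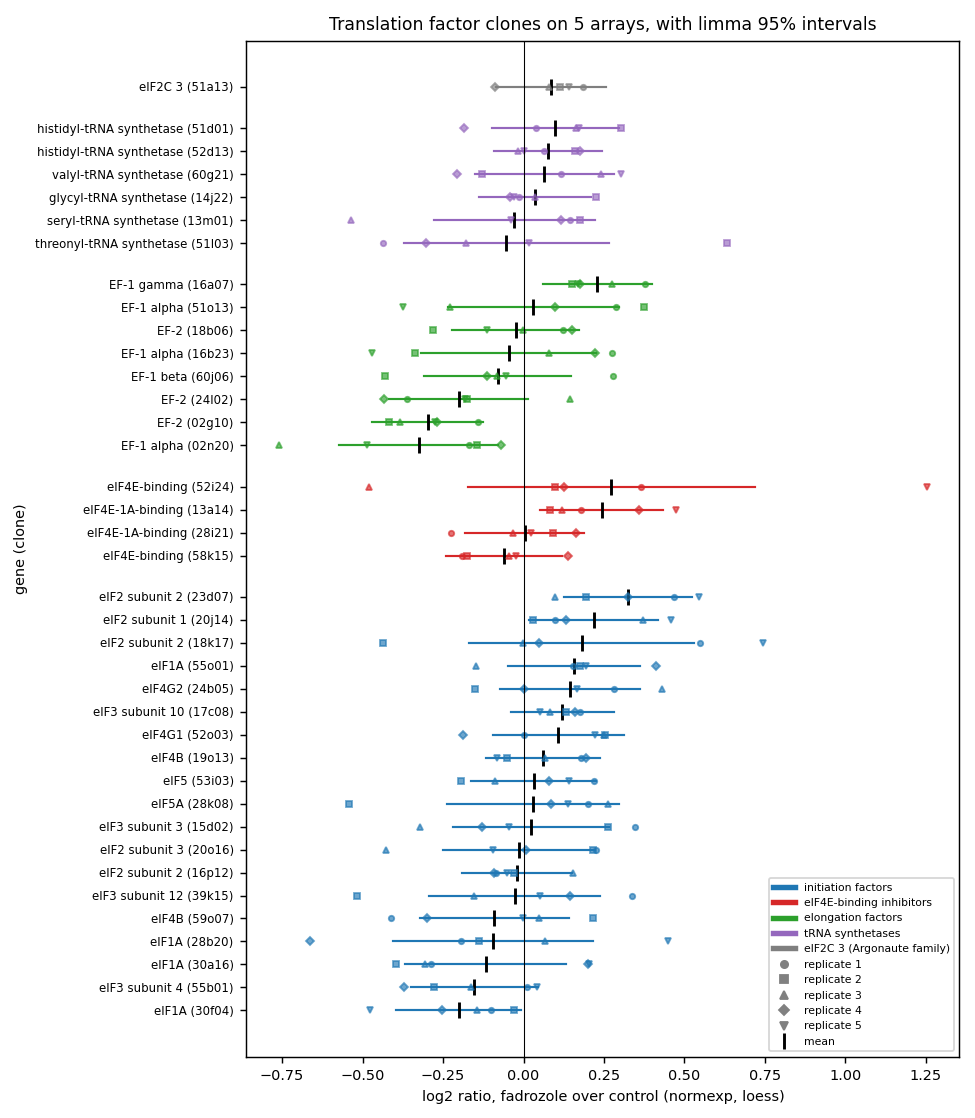
Log2 ratio of fadrozole over control (horizontal axis) for each of the 38 translation factor clones (vertical axis, grouped by role), with 1 point per array and the mean over the 5 arrays. The means lie between -0.33 and 0.33, and 5 clones are above 0 and 3 below 0 on all 5 arrays.

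Few members kept 1 sign on all arrays. There were 5 with a ratio above 0 on every array, where 7.14% of all tested clones were so, and 3 with a ratio below 0 on every array, where the share was 7.65%. The 5 are eIF2 alpha, 1 clone of eIF2 beta, eIF3 subunit 10, 1 eIF4E-1A-binding clone and EF-1 gamma. The 3 are the EF-2-like clone eef2l, 1 clone of EF-1 alpha and 1 of eIF1A. Each ratio is the mean of 2 spots. In all of these clones but those of eIF2 beta and EF-1 gamma, the 2 spots lay on opposite sides of 0 on at least 1 array.

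Among the initiation factors, which had a median of 0.03 ± 0.08, the eIF2 subunits stood highest, with a median of 0.18 ± 0.18 over 5 clones. That median is the value of 1 dim beta clone, 18k17, and 2 of the 5 clones had a mean below 0. Subunit alpha of eIF2 is the one that stress kinases phosphorylate to slow initiation, beta binds the factors that exchange and trigger the bound GTP, and gamma binds that GTP and the initiator tRNA. The eIF2 beta clone 23d07 had ratios of 0.47, 0.19, 0.10, 0.33 and 0.54 on replicates 1 to 5. All 5 were above 0, with replicates 1 and 5 highest and replicate 3 lowest. Its mean was 0.33 ± 0.18 (SD, n = 5), or 1.25-fold, with a 95% interval of 0.13 to 0.52 and a limma adjusted p of 0.109. On all 5 arrays, 0.5 or more of its usable spots were above the 95th percentile of the empty spots in each channel. On replicate 3 the mean control intensity of its 2 spots was 198, under that percentile of 220. Clone 23d07 passed the threshold under the 2 stricter filters on brightness, where limma also called more clones over the whole array. These were 133 higher and 214 lower under the filter on both channels, and 136 and 257 under that on empty spots. The limma adjusted p of 23d07 was 0.0497 among the 3308 clones above the local background in both channels on at least 3 arrays. Among the 2877 clones whose control channel was above the empty spots on at least 3, it was 0.0462. Among the 7310 clones outside source plates 02 and 04, it was 0.234. The clone also passed, at 0.0231, where the 2 spots of a clone entered the limma fit apart and 160 clones were called higher. Both spots, however, measure the same fish and add no replicates. With the median of each source plate set to 0 on each array, its mean was 0.26, and over all alternatives the limma adjusted p ran from 0.0231 to 0.289.

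The other eIF2 beta clones did not share these values. Clone 18k17 had ratios of 0.55, -0.44, -0.00, 0.05 and 0.75, with a mean of 0.18 ± 0.47 (SD, n = 5, limma, adjusted p = 0.66). Replicates 1 and 5 were high and replicate 2 was well below 0. The 2 spots of replicate 5 read 0.05 and 1.44, the fadrozole channel was above the local background on 1 array only, and with 1 array left out the mean ran from 0.04 to 0.34. Clone 16p12 had ratios of -0.08, -0.03, 0.15, -0.09 and -0.05 and a mean of -0.02 ± 0.10. Its fadrozole channel was not above the local background on any array, so that this channel gives only a bound there. Averaged over the 3 clones on each array, eIF2 beta stood at 0.16 ± 0.20 (SD of the 5 array means), with replicate 2 below 0.

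The eIF2 alpha clone 20j14 had ratios of 0.10, 0.03, 0.37, 0.13 and 0.46. All were above 0, with replicates 3 and 5 apart from the other three. On replicates 1, 2 and 4 its 2 spots lay on opposite sides of 0. The mean was 0.22 ± 0.19 (SD, n = 5), or 1.16-fold, with a limma adjusted p of 0.297. The eIF2 gamma clone 20o16 had ratios of 0.23, 0.22, -0.43, 0.01 and -0.10 and a mean of -0.01 ± 0.27 (SD, n = 5, limma, adjusted p = 0.975). Replicate 3 was the low value, and on that array its scanner intensity was 917 in the control channel and 1564 in the fadrozole channel, against 34.9 to 103 and 104 to 366 on the other four. Thus, as means of 2 spots, alpha and 1 beta clone lay above 0 on every array and gamma on both sides of 0. None of them passed the threshold.

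For eIF1A, which helps the small subunit scan for the start codon, 4 clones gave a median of -0.11 ± 0.14. Clone 30f04 had ratios of -0.10, -0.03, -0.15, -0.25 and -0.48. All were below 0, with replicate 5 lowest, where the 2 spots read 0.03 and -0.98. On every array but replicate 4 its 2 spots lay on opposite sides of 0, so that the shared sign is that of their means. Its mean was -0.20 ± 0.17 (SD, n = 5, limma, adjusted p = 0.325). Clone 55o01 lay the other way, with ratios of 0.15, 0.17, -0.15, 0.41 and 0.19 and a mean of 0.16 ± 0.20 (SD, n = 5, limma, adjusted p = 0.494). Only replicate 3 was below 0 for 55o01. Clone 28b20 had ratios of -0.19, -0.14, 0.07, -0.66 and 0.45, with a mean of -0.10 ± 0.40, and 30a16 had a mean of -0.12 ± 0.29. On replicate 4 the 2 spots of 28b20 read 0.23 and -1.56, so that its lowest value rests on 1 spot, and its mean was 0.14 with the background not subtracted. Averaged over the 4 clones, eIF1A stood at -0.06 ± 0.09 (SD of the 5 array means).

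The 4 clones of eIF3, the large complex that holds the small subunit ready for the mRNA, had a median of -0.00 ± 0.16. Subunit 10, its biggest scaffold protein, was represented by clone 17c08, with ratios of 0.18, 0.13, 0.08, 0.16 and 0.05. These were above 0 on all arrays and the closest together of all members. On replicates 1, 2 and 5, however, its 2 spots lay on opposite sides of 0. Its control channel was above the empty spots on no array. The mean was 0.12 ± 0.05 (SD, n = 5, limma, adjusted p = 0.503), and the fadrozole channel was above the local background on 1 array only. Subunit 4, an RNA-binding part of the complex, was clone 55b01, with ratios of 0.01, -0.28, -0.16, -0.37 and 0.04. Replicates 1 and 5 were near 0 and the other three below it. Its mean was -0.15 ± 0.18 (SD, n = 5, limma, adjusted p = 0.487), with the fadrozole channel not above the local background on any array. Subunits 3 and 12 had means of 0.02 ± 0.28 and -0.03 ± 0.33, with values on both sides of 0.

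The eIF4 clones had a median of 0.08 ± 0.09. The rule found no clone of the cap-binding factor eIF4E or of the helicase eIF4A, only of their partners. The clone of eIF4G2, a relative of the scaffold eIF4G1 that lacks the eIF4E-binding region, was 24b05, with ratios of 0.28, -0.15, 0.43, 0.00 and 0.17. Replicates 1, 3 and 5 were above 0, replicate 4 at 0 and replicate 2 below. Its mean was 0.15 ± 0.23 (SD, n = 5, limma, adjusted p = 0.555), and both channels were above the empty spots on all 5 arrays. The scaffold eIF4G1 itself, which joins eIF4E to eIF3, had a mean of 0.11 ± 0.20 (clone 52o03). For eIF4B, a cofactor of the helicase, clone 59o07 had ratios of -0.41, 0.21, 0.05, -0.30 and -0.00 and a mean of -0.09 ± 0.26 (SD, n = 5, limma, adjusted p = 0.752). The second eIF4B clone, 19o13, had a mean of 0.06 ± 0.13, so that the clones of this gene lay on either side of 0 by less than their spread.

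The factor eIF5, which triggers GTP hydrolysis on eIF2, had a mean of 0.03 ± 0.17 (clone 53i03). For eIF5A, which carries the amino acid hypusine and helps ribosomes that stall, clone 28k08 had ratios of 0.20, -0.54, 0.26, 0.09 and 0.14. Replicate 2 alone was below 0, and the mean was 0.03 ± 0.33 (SD, n = 5, limma, adjusted p = 0.947).

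The 4 clones of eIF4E-binding inhibitors had a median of 0.12 ± 0.12. These proteins hold eIF4E away from eIF4G until the kinase mTOR phosphorylates them. Clone 13a14, whose name reads eIF4E-1A-binding, had ratios of 0.18, 0.08, 0.12, 0.36 and 0.47. All were above 0, replicates 4 and 5 most so. The mean was 0.24 ± 0.17 (SD, n = 5), or 1.18-fold, with a limma adjusted p of 0.217. The second clone of that name, 28i21, had ratios of -0.22, 0.09, -0.03, 0.16 and 0.02 and a mean of 0.00 ± 0.15 (SD, n = 5, limma, adjusted p = 0.99). It lay on both sides of 0, and its 95% interval of -0.18 to 0.19 overlapped that of 13a14, which ran from 0.05 to 0.43. Whether the 2 clones carry the same transcript is not known from the names.

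Clone 52i24, an eIF4E-binding protein, had the widest spread of all members, with ratios of 0.36, 0.10, -0.48, 0.13 and 1.25 and a mean of 0.27 ± 0.63 (SD, n = 5, limma, adjusted p = 0.594). Replicate 5 was far above the rest, and the 2 spots of that array read -0.15 and 2.66. Without that array its mean was 0.03. The spots also disagreed on replicate 1, at -0.13 and 0.86, and on replicate 3, at 0.03 and -0.99. Its companion 58k15 had ratios of -0.19, -0.17, -0.05, 0.14 and -0.02, mostly just below 0, and a mean of -0.06 ± 0.13. For 58k15 the fadrozole channel was above the local background on 1 array and the control channel above the empty spots on 0. Over all members, the 2 spots of a clone differed by a median of 0.34, beside 0.29 over all tested clones.

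**Figure D2:**
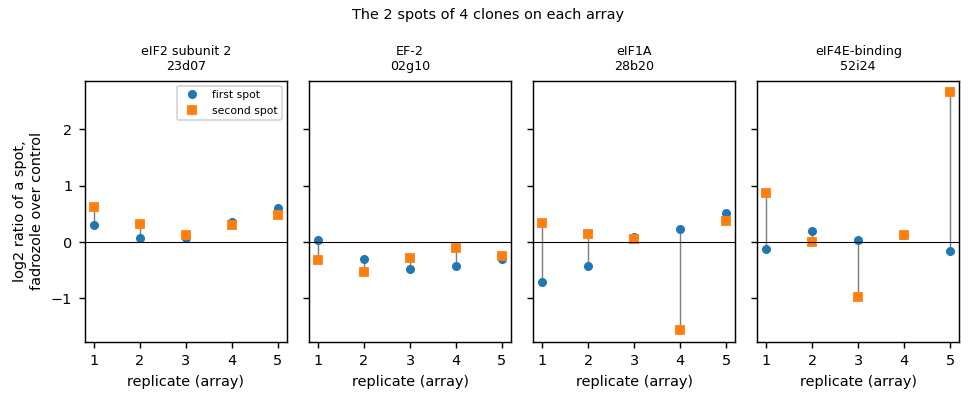
Log2 ratio of each of the 2 spots (vertical axis) on the 5 arrays (horizontal axis) for 4 of the clones. The spots of 52i24 on replicate 5 lie at -0.15 and 2.66, and those of 28b20 on replicate 4 at 0.23 and -1.56.

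The elongation factors had a median of -0.06 ± 0.18 over 8 clones and held the lowest members. The EF-2 clone 02g10, named eef2l, had ratios of -0.14, -0.42, -0.38, -0.27 and -0.27. All were below 0, with replicate 1 nearest to it. The mean was -0.30 ± 0.11 (SD, n = 5), or 1.23-fold lower, with a limma adjusted p of 0.0912, the lowest among the members. The fadrozole channel of 02g10 was above the local background on 2 arrays only. The EF-1 alpha clone 02n20 had ratios of -0.17, -0.14, -0.76, -0.07 and -0.49. It too was below 0 on every array, with replicates 3 and 5 far lower than the others. On replicate 3 its 2 spots read -0.06 and -1.46, so that its lowest value rests on 1 spot. Its mean was -0.33 ± 0.29 (SD, n = 5), or 1.25-fold lower, with a limma adjusted p of 0.198.

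These are the 2 members from source plate 02, a set of 384 clones whose names begin with 02. That plate as a whole had a median of -0.34 ± 0.15 (SD of the 5 array medians), was below 0 on every array, and held 94 of the 130 clones called lower. The shares of all clones set beside the members include plates 02 and 04. Of the 7310 tested clones outside them, 3 were called lower and 33 higher. On every array 287 of these were below 0 and 571 above it, and 53.1% had a mean above 0. With each source plate centered on its median, 02g10 stood at 0.05 (limma, adjusted p = 0.844) and 02n20 at 0.02 (limma, adjusted p = 0.952). On plate 02 the control channel was above the empty spots on at least 3 arrays for 86.7% of the clones. Outside plates 02 and 04 this held for 31.1%. What sets plate 02 apart was not tested. Clone 02g10 passed the threshold in 2 alternatives, with a limma adjusted p of 0.0437 among clones whose control channel was above the empty spots and 0.0263 with the spots kept apart. Limma called 257 of 2877 clones lower in the first and 241 of 8078 in the second, and 136 and 160 higher. The first filter looks at the control channel alone, which is the higher channel in a clone called lower. With its fadrozole channel above the local background on 2 arrays, 02g10 was not among the 3308 clones of the filter on both channels.

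Other clones named EF-2 or EF-1 alpha, printed from other plates, lay nearer to 0. They were also dimmer. For EF-2 the mean log2 signal was 7.42 (24l02) and 7.53 (18b06), against 7.76 for 02g10. For EF-1 alpha it was 7.18 (16b23) and 7.76 (51o13), against 8.01 for 02n20. The part of brightness in these differences was not tested. EF-2 had 24l02, with ratios of -0.36, -0.17, 0.14, -0.43 and -0.18 and a mean of -0.20 ± 0.22 (SD, n = 5, limma, adjusted p = 0.389). It was below 0 on all arrays but replicate 3. Its fadrozole channel was above the local background on 1 array, and its mean was -0.0021 with the background not subtracted. The third EF-2 clone, 18b06, had ratios of 0.12, -0.28, -0.00, 0.15 and -0.11 and a mean of -0.02 ± 0.18. Averaged over these 2 clones, EF-2 stood at -0.11 ± 0.11 (SD of the 5 array means). Over all 3, with eef2l counted as EF-2, it stood at -0.17 ± 0.08.

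EF-1 alpha, among the most abundant proteins of most cells, had 16b23, with ratios of 0.27, -0.34, 0.08, 0.22 and -0.47, and 51o13, with ratios of 0.29, 0.37, -0.23, 0.10 and -0.38. Their means were -0.05 ± 0.34 and 0.03 ± 0.32, and in both clones replicate 5 was lowest and replicate 1 above 0. For 16b23 the 2 spots of replicate 5 read -1.36 and 0.42, so that this value rests on 1 spot. The fadrozole channel of 16b23 was above the local background on 1 array. Averaged over the 2 clones outside plate 02, the gene stood at -0.01 ± 0.27 (SD of the 5 array means). EF-1 alpha has near-identical gene copies in fish, and a cDNA spot can hybridize to several of them.

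**Figure D3:**
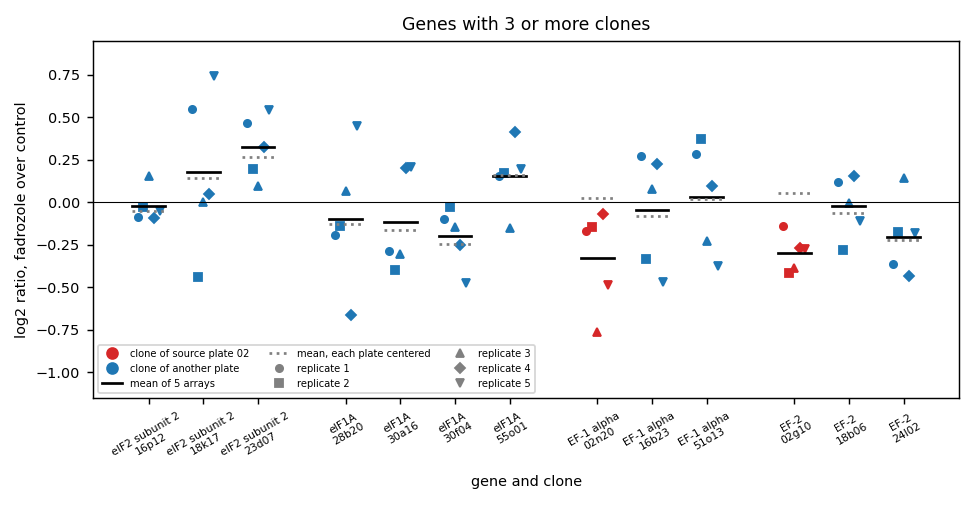
Log2 ratio of fadrozole over control (vertical axis) for the genes with several clones, 1 point per array and clone, with the clones of plate 02 marked. The plate 02 clones of EF-1 alpha and EF-2 have means of -0.33 and -0.30, and the other clones of these genes have means between -0.20 and 0.03.

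The remaining elongation factors are the exchange subunits of EF-1. EF-1 gamma, which anchors that complex, was clone 16a07, with ratios of 0.38, 0.15, 0.27, 0.18 and 0.17. All were above 0 and close together, replicate 1 being highest. The mean was 0.23 ± 0.10 (SD, n = 5), or 1.17-fold, with a limma adjusted p of 0.183. Over all alternatives the mean of 16a07 ran from 0.19 to 0.56, the highest being with plain background subtraction. The limma adjusted p of this clone ran from 0.0526, with the spots kept apart, to 0.377. Its fadrozole channel was above the local background on 1 array and its control channel above the empty spots on none, so that this ratio rests on dim spots. EF-1 beta, the subunit that swaps GDP for GTP, was clone 60j06, with ratios of 0.28, -0.43, -0.08, -0.11 and -0.05 and a mean of -0.08 ± 0.25 (SD, n = 5, limma, adjusted p = 0.782). Replicate 1 alone was above 0, and the fadrozole channel was above the local background on 1 array. The difference between EF-1 beta and EF-1 gamma was not tested.

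The 6 clones of aminoacyl-tRNA synthetases had a median of 0.05 ± 0.11 and means from -0.05 to 0.10. The highest was the histidine enzyme, clone 51d01, with ratios of 0.04, 0.30, 0.16, -0.18 and 0.17 and a mean of 0.10 ± 0.18 (SD, n = 5, limma, adjusted p = 0.669). A second histidine clone, 52d13, had a mean of 0.08 ± 0.09, and both were below 0 on a single array. The lowest was the threonine enzyme, clone 51l03, with ratios of -0.44, 0.63, -0.18, -0.30 and 0.02 and a mean of -0.05 ± 0.42 (SD, n = 5, limma, adjusted p = 0.913). Replicate 2 was far above the other arrays there. The serine, glycine and valine enzymes had means of -0.03 ± 0.30, 0.04 ± 0.11 and 0.06 ± 0.22. The Argonaute clone 51a13 had ratios of 0.19, 0.11, 0.08, -0.09 and 0.14, above 0 on all arrays but replicate 4, and a mean of 0.09 ± 0.10 (SD, n = 5, limma, adjusted p = 0.667). Both 51a13 and 52d13 were dim, with the fadrozole channel above the local background on 1 array and the control channel above the empty spots on 0.

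How bright the spots were limits these values. The control channel of a member was above the local background on all 5 arrays for 33 clones and on 4 for the other 5. The fadrozole channel was above it on all 5 arrays for 5 clones, on at least 3 for 20, on 1 for 10 and on 0 for 3. Those 3 are the eIF2 beta clone 16p12 and the eIF3 subunits 12 and 4, whose fadrozole level is only bounded from above, so that no fold is given for them. The log2 ratios of these 3 clones are given above and enter the medians and interval counts, but rest on that bounded level. Their 95% intervals all included 0. The array carried 776 empty spots, and the control channel exceeded their 95th percentile on at least 3 arrays for 12 of the 38 members, or 31.6%, beside 35.6% of all clones. Over these 12 the median log2 ratio was 0.03 ± 0.06. The median fadrozole intensity of clone spots ran from 122 to 386 between arrays and that of empty spots from 98.2 to 311, while in the control channel the ranges were 62.9 to 96.4 and 0 to 49.7.

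**Figure D4:**
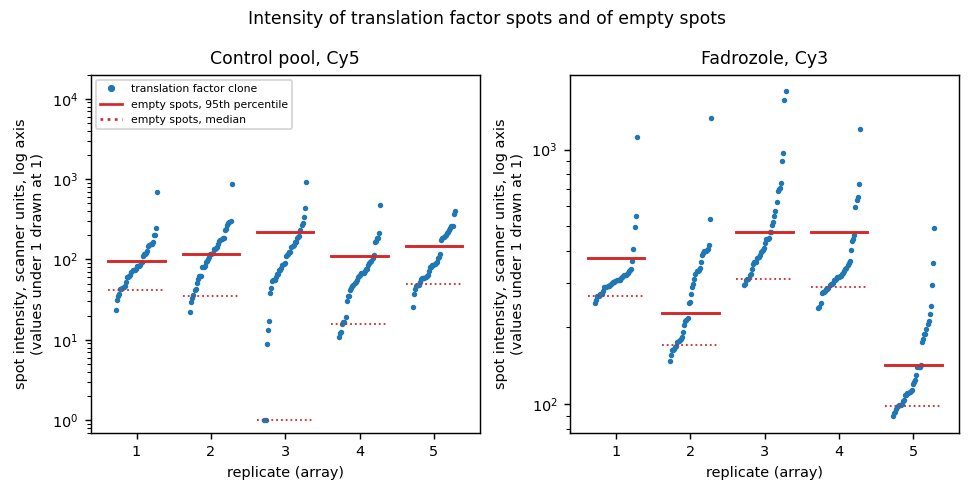
Scanner intensity (vertical axis, log scale) of the 38 clones on each array (horizontal axis) in the control and the fadrozole channel, with the median and the 95th percentile of the 776 empty spots as lines. By the mean intensity of its spots, between 6 and 19 of the clones lie above the 95th percentile on an array in the control channel. In the fadrozole channel it is between 4 and 21.

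Other genes of translation were described in the same way. The 114 clones of cytosolic ribosomal proteins had a median of 0.05 ± 0.04, with 1 called higher, where 0.421% of all clones were, and 0 lower, where 1.61% were. Their array medians were above 0 on all 5 arrays. A mean above 0 was found for 72 of the 114, beside 49% of all clones and 53.1% outside plates 02 and 04. None of the 114 came from plates 02 and 04. Many came from source plates 39 and 40, and the median of the set with plates centered was not computed. Centering takes the same plate median from every clone of plate 39, and moved the eIF3 subunit 12 clone 39k15 of that plate from -0.03 to -0.08. There were 17 above 0 on every array, beside 7.14% of all clones, and 2 below 0 on every array, beside 7.65%. Of the 7310 clones outside plates 02 and 04, 571 were above 0 and 287 below 0 on every array, and 3 were called lower. The called clone was 40S ribosomal protein S7 (39p04), at 0.42 ± 0.11 (SD, n = 5, limma, adjusted p = 0.0335), or 0.36 with plates centered (limma, adjusted p = 0.175). Other clones of that name did not share the call. Clone 39m09 stood at 0.11 (limma, adjusted p = 0.667) and clone 40i08 at -0.25 (limma, adjusted p = 0.627). Among 22 clones of other translation genes, among them poly(A)-binding proteins, signal recognition particle proteins and translationally controlled tumor protein, the median was 0.02 ± 0.08, with 0 called higher and 1 lower. That 1 came from plate 02 as well (02g09, at -0.56 ± 0.23, limma adjusted p = 0.0241, and at -0.22 with plates centered, limma adjusted p = 0.342), and its description, "gf A2 rapamycin", names no gene.

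The tissue label was set against marker genes. The control channel was above the empty spots on at least 3 arrays for 35.6% of all tested clones. Among markers this held for 23 of 38 clones of neurons (60.5%), 21 of 33 of radial glia and astroglia (63.6%) and 13 of 23 of myelin (56.5%). It also held for 13 of 18 marker clones of blood (72.2%), 12 of 32 of muscle (37.5%) and 1 of 2 of the pituitary. The median log2 ratios of the marker sets were -0.07 for neuronal markers, -0.16 for glia, 0.01 for myelin, -0.13 for blood, 0.08 for muscle and -0.09 for the pituitary. Of the marker clones, 0 were called higher, where 0.421% of all clones were. Called lower were 4 neuronal and 5 glial clones, where 1.61% of all clones were. Of these markers, 11 of the 38 neuronal and 14 of the 33 glial clones came from source plates 02 and 04, and 0 clones of the whole array were called with each plate centered or without those plates, where 910 and 741 had an unadjusted limma p under 0.05. The array medians ran from -0.32 to -0.11 for glia and from -0.35 to -0.01 for blood. The part of cell makeup in the values of the translation factors was not tested, and fewer cells of a type and less RNA per cell cannot be told apart in whole tissue.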

How the data were processed

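Telencephalon RNA was measured on 5 two-color cDNA arrays, from slides 4, 14, 22, 33 and 44 (replicates 1 to 5), with 17328 spots each. Per the file headers, the deposited spot intensity and its local background are on a linear scale and were deposited unsubtracted, and the files do not say whether an intensity is a mean or a median. The authors also deposited 1 log2-like processed value per spot, with base and scaling not stated. Across spots these had correlations of -0.996 to -1.00 with loess log2 ratios from plain subtraction, with slopes of -0.73 to -0.81, and therefore give control over fadrozole. Their sign was turned. Their column medians ran from -0.0387 to 0.0363, each column having a mean of -0.0046. No genome positions or sequences were used.

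From the intensities, limma 3.58.1 (R 4.3.3, statmod 1.5.0) made log2 ratios of Cy3 (fadrozole) over Cy5 (control), with normexp background correction (offset 50) and loess over all clone spots (span 0.3). Empty spots, control spots and the 0 to 29 spots an array that the scanner software marked as ignored were given no weight, and duplicate spots were averaged. A clone entered the test if, on 3 or more arrays, 0.5 or more of its usable spots were over the local background plus 2 of its SDs in either channel. This kept 8078 of 8099 clones and all 38 members. A channel counted as above the local background or the empty spots on an array by the same share of spots. The mean ratio was tested against 0, two-sided, at a Benjamini-Hochberg adjusted p of 0.05 over the 8078 clones, and 4 residual and 5.24 prior degrees of freedom. Intervals are limma's 95% intervals. With arrays, the number of arrays (5) limits the precision. The procedure was tested on simulated data.

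The members and the lists were chosen with earlier results of these data known, so that lists are described by counts and medians and not tested. The rule for named clones took every called member, the highest and lowest of each role (initiation factors and elongation factors by family), the 3 brightest members, genes with at least 3 clones, and the clones of eIF2, eEF1A and eEF2. Members named beyond these 28, such as 13a14 and 28i21, were chosen after their values were seen. All arrays had 1 dye orientation and each is 1 slide, so that neither a slide block nor a dye term could be fitted. The source plate was read from the start of the clone name. The alternatives were background left in or plainly subtracted, centering by the median or print-tip loess, no filter or 2 stricter filters, the authors' values, source plates with at least 20 clones centered, plates 02 and 04 left out, spots kept apart, a random block for the quantification day (replicate 1 apart from the others), an intensity trend with robust estimation, each array left out, and clones of 1 gene averaged.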

Additional observations from a re-analysis of the deposited data

Results flagged for a closer look

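In 2 of the 43 series of 5 array values tested, 1 array stood apart by Dixon's criterion, whose 95% critical value for 5 samples is 0.71, and chance marks about 1 such series in 20. For the eIF2 beta clone 16p12, replicate 3 was highest at 0.15, with a gap to the next value of 0.746 of the whole range. For the eIF5A clone 28k08, replicate 2 was lowest at -0.54, with a gap of 0.781 of the range. Neither clone passed the threshold with or without that array.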

How the results depend on the processing

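With 5 arrays against 1 pool and many spots near the level of empty spots, only differences well above the array spread can be called. No paired analysis was possible because the arrays form 1 group against 1 pool. Over the whole array, limma's 34 clones called higher and 130 lower became 0 and 0 with the background not subtracted, with plain subtraction, with the authors' values, with each source plate centered and without plates 02 and 04, where 1187, 1042, 1125, 910 and 741 clones had an unadjusted p under 0.05; the cause was not tested. They became 133 and 214 among the 3308 clones above the local background in both channels, 136 and 257 among the 2877 clones with the control channel above the empty spots, and 160 and 241 with the spots kept apart. Leaving out 1 array gave 0 to 21 higher and 0 to 153 lower. Members called were 1 higher (23d07) under the filter on both channels, 1 higher (23d07) and 1 lower (02g10) under the empty-spot filter and with spots kept apart, and 0 under the other alternatives. The empty-spot filter left 12 members, and the role values then rested on few clones. They were 0.15 for initiation factors (7 clones), 0.0042 for inhibitors (1 clone), -0.30 for elongation factors (3 clones) and -0.05 for tRNA synthetases (1 clone, from 0.05 over all). The 3 elongation clones include both plate 02 clones, and -0.30 is the value of 02g10. Without this filter and with 1 array left out, the role medians ran from -0.010 to 0.087, 0.014 to 0.16, -0.14 to -0.024 and 0.018 to 0.059, in the same order of roles. The median of all members ran from -0.01 to 0.05 over all alternatives.

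Of the 28 named clones, 13 changed sign under at least 1 alternative, to values of at most 0.15 in size and with no limma adjusted p under 0.613. With the background not subtracted, 28b20 stood at 0.14, 59o07 at 0.076, 53i03 at -0.10 and 51l03 at 0.0054. With plain subtraction, 20o16 stood at 0.0097, 28b20 at 0.097, 53i03 at -0.094, 16b23 at 0.15 and 18b06 at 0.037. With median centering, 16p12 stood at 0.0071 and 20o16 at 0.034. With print-tip loess, 16p12 stood at 0.0090, 20o16 at 0.0088, 51o13 at -0.091 and 18b06 at 0.0069. With the authors' values, 16p12 stood at 0.021, 20o16 at 0.025, 28b20 at 0.11, 53i03 at -0.041, 16b23 at 0.052 and 18b06 at 0.040. With each plate centered, 28k08 stood at -0.0023, 02n20 at 0.023 and 02g10 at 0.052, where the centering itself takes out the plate's median. With 1 array left out, the values ran from -0.016 to 0.087 for 53i03, -0.029 to 0.17 for 28k08, -0.056 to 0.13 for 51o13, -0.22 to 0.042 for 51l03, -0.13 to 0.060 for 16b23, -0.17 to 0.0074 for 60j06, -0.069 to 0.039 for 18b06, -0.074 to 0.089 for 20o16 and -0.23 to 0.046 for 28b20. For the rest, the cause was not tested.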
